A study of Mus musculus with 6 samples.

Results

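Tuft cell identity factors and signalling kinases were described through 9 genes, taken by symbol from the 23565 genes of a count table made from sorted crypt cells of the mouse small intestine. They are the transcription factors Pou2f3, Gfi1b, Hmx2 and Spib, the kinases Dclk1, Matk and Bmx, the actin-binding protein Avil and the adaptor Sh2d6. All 9 had counts in all 6 libraries and all 9 passed the filter on low counts. RNA sequencing compared tdTomato-positive cells of HopXCreER::Rosa26LSL-tdTomato mice (Hopx-CreER, 3 libraries) with eGFP and tdTomato double-positive cells of Lgr5eGFP-IRES-CreER::Rosa26LSL-tdTomato mice (Lgr5-CreER, 3 libraries). Both genotypes carry a Cre recombinase that tamoxifen activates and a Rosa26 reporter that makes the red protein tdTomato after Cre has acted, and both received 1 mg of tamoxifen 16 hours before crypts were taken. Cre is driven from the Hopx locus in one genotype and from the Lgr5 locus in the other, and the sort of the second genotype used eGFP as well as tdTomato, so genotype and gate cannot be told apart. The age and sex of the mice, and any pooling, are not given in the sources used here.

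Tuft cells are rare chemosensory cells of the intestinal epithelium that carry a tuft of long microvilli, sense luminal metabolites and parasites, and signal to immune cells with IL-25 and lipid mediators. Pou2f3, a POU-domain transcription factor, is required for them to form, and Gfi1b, a zinc-finger repressor, is among the factors that mark them. Dclk1, a kinase that binds microtubules, is a widely used marker of the cell, and Avil (advillin), a relative of villin, bundles actin in the microvilli. Matk, Bmx and Sh2d6 take part in phosphotyrosine signalling, which tuft cells share with haematopoietic cells. Matk phosphorylates and restrains Src-family kinases, Bmx is a kinase of the Tec family, and Sh2d6 carries an SH2 domain that binds phosphotyrosine.

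RefSeq promoter windows (GRCm38.p6, 250 bases before to 50 after an annotated start) were found for 8 of the 9 members, all but Pou2f3, in 11 windows. Windows are shown for the member with the highest level per transcript length, Avil (chr10:127000459-127000758, plus strand), for the member with the smallest difference between Hopx-CreER library 3 and the other Hopx-CreER libraries, Matk (the more upstream of its pair of starts, chr10:81252685-81252984, plus strand), and for Bmx (chrX:164258144-164258443, minus strand), which had the second-largest such difference. Capitals mark the 50 bases from the start onward and, in Bmx, also a motif.
Avil: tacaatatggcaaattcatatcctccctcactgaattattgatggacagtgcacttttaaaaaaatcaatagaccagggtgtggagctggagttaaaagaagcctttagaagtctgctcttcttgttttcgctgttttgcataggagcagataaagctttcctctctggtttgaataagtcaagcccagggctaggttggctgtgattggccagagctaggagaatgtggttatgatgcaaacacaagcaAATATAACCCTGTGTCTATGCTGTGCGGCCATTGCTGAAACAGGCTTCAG
Matk: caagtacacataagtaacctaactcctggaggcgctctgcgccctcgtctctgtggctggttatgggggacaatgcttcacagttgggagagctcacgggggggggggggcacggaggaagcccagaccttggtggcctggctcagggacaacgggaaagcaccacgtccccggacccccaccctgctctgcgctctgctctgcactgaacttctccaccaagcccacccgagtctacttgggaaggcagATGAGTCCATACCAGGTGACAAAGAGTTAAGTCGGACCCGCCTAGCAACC
Bmx: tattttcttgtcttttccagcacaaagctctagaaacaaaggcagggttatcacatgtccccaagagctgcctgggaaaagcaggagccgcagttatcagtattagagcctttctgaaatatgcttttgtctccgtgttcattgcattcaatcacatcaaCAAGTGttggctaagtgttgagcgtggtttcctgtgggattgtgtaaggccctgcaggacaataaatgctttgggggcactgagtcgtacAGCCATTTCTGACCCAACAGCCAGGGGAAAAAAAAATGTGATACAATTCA
Motifs of the members' own factor families were searched on both strands. The POU2F octamer ATGCAAAT was in 0 of the 11 windows and in 1.74% of all 32851 RefSeq windows of this length. The Spi-type ETS motif GAGGAAGT was in 0 of 11 (3.2% of all), and the GFI motif AAATCAC in 0 of 11 (3.2% of all). CAAGTG, which HMX and NKX homeodomains bind, was in 1 window, starting 90 bases before the Bmx start, and in 13.6% of all windows. These are matches of letters in short windows. G and C made up 43% of the Avil window, 60.7% of the Matk window and 44.7% of the Bmx window.

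The 6 libraries held between 10839306 and 14570555 counts. Levels are in CPM, counts scaled to a common library size with TMM factors, and a single count stood for 0.0669 to 0.0928 CPM depending on the library. Library numbers follow the table and serve as names. The study's design names 3 mice of each genotype, but the labels do not assign libraries to mice, the columns of Lgr5-CreER libraries 2 and 3 bear one number in common, and the column of Hopx-CreER library 3 bears a tag that the labels do not explain. The p-values therefore measure the spread between libraries, which may be technical. Hopx-CreER library 3 stood apart from libraries 1 and 2 for most of the 9 genes, and results are given with and without it. In bulk RNA, fewer cells of a type and less RNA per cell cannot be told apart.

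Most of the tuft identity genes were higher in Hopx-CreER cells: 7 of the 9 passed the test (edgeR quasi-likelihood, Benjamini-Hochberg adjusted p under 0.05 over 12439 genes), against 9.45% of all genes tested, and 0 were lower, against 3.3%. Hmx2, Sh2d6, Gfi1b, Spib, Avil, Dclk1 and Matk rose, while Pou2f3 and Bmx did not pass. All 3 Hopx-CreER libraries lay above all 3 Lgr5-CreER libraries for 6 members, against 18.8% of all genes. Fold changes are given as Hopx-CreER over Lgr5-CreER. Their median on the log2 scale was 2.24 over the members and -0.033 over all tested genes. Without Hopx-CreER library 3, 9 of 9 passed, against 9.89% of all genes, and the median was 2.69. The genes were chosen with earlier results of these data known, so these counts are a description of the members.

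**Figure D1:**
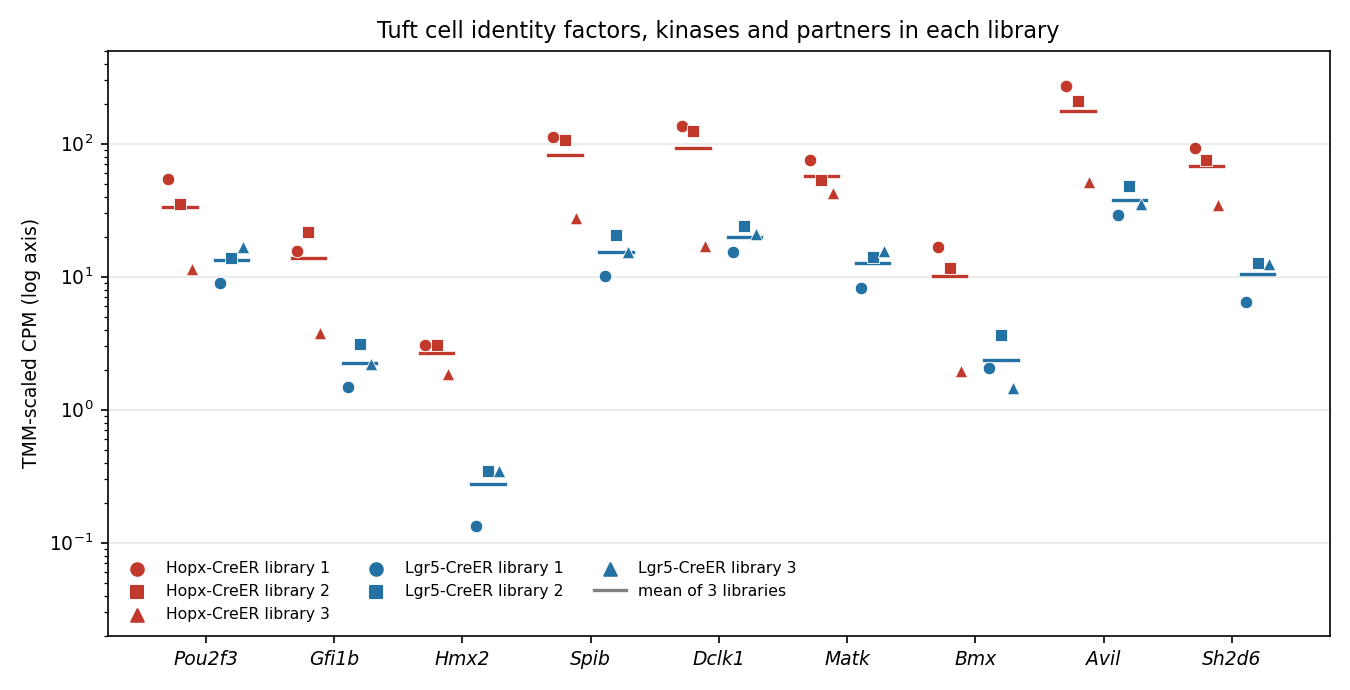
Level of each of the 9 genes in each library, in TMM-scaled CPM on a log axis; red points are Hopx-CreER and blue points Lgr5-CreER libraries, the marker shape gives the library number and bars are means of 3 libraries. Hopx-CreER library 3 (red triangle) lies below libraries 1 and 2 for every gene, and among the Lgr5-CreER points for Pou2f3, Dclk1 and Bmx.

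Among the transcription factors, Pou2f3 stood at 53.9, 35.3 and 11.4 CPM in Hopx-CreER libraries 1, 2 and 3, and at 9.04, 13.8 and 16.9 CPM in the Lgr5-CreER libraries. The groups overlap, because library 3 is below Lgr5-CreER libraries 2 and 3. Its means were 33.5 ± 21.3 CPM against 13.2 ± 3.94 CPM (SD, n = 3), with a log2 fold change of 1.34 ± 0.48 (SE; edgeR adjusted p 0.103). Without Hopx-CreER library 3 the log2 fold change was 1.74 ± 0.26 (edgeR adjusted p 0.00141). Pou2f3 was called in 5 of 16 alternative fits. The highest edgeR adjusted p for Pou2f3 was 0.266, without Lgr5-CreER library 1. Pou2f3 (chromosome 9, 43123939 to 43210369, minus strand; GRCm38 here and below) had the smallest fold change of the 9 in both fits.

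Gfi1b, best known from red cell and platelet precursors, stood at 15.7, 21.6 and 3.8 CPM in Hopx-CreER libraries and at 1.47, 3.11 and 2.2 CPM in Lgr5-CreER libraries (chromosome 2, 28609450 to 28621982, minus strand). Library 3 lay just above the highest Lgr5-CreER library, so the groups did not overlap. Gfi1b rose by 2.61 ± 0.59 on the log2 scale (SE; edgeR adjusted p 0.02), with means of 13.7 ± 9.08 CPM and 2.26 ± 0.82 CPM (SD, n = 3). The call ended without Hopx-CreER library 2 or Lgr5-CreER library 1, 2 or 3 (edgeR adjusted p 0.0659, 0.0796, 0.0565 and 0.0808).

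Hmx2, a homeobox factor known from the inner ear and hypothalamus, was the least abundant member and had the largest fold change. It had 41, 36 and 20 counts in the Hopx-CreER libraries (3.09, 3.04 and 1.86 CPM) and 2, 4 and 5 counts in the Lgr5-CreER libraries (0.134, 0.346 and 0.344 CPM). Every Hopx-CreER library was far above every Lgr5-CreER library, library 3 included. Hmx2 (chromosome 7, 131548773 to 131558014, plus strand) rose by 3.26 ± 0.52 on the log2 scale (SE; edgeR adjusted p 0.00446), with means of 2.66 ± 0.70 CPM and 0.274 ± 0.122 CPM (SD, n = 3). Summed counts were 97 against 11, a ratio of 10.1 after scaling with an exact 95% interval of 5.4 to 20.9. Here and below, such intervals cover counting error only.

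Spib, an ETS factor used by B cells, plasmacytoid dendritic cells and the M cells of the follicle epithelium, was the most abundant of the 4 factors per transcript length. It stood at 112, 106 and 27.6 CPM in Hopx-CreER libraries and at 10.2, 20.6 and 15.3 CPM in Lgr5-CreER libraries (chromosome 7, 44525993 to 44532071, minus strand). The groups did not overlap, although library 3 was much nearer to the Lgr5-CreER range than to the other Hopx-CreER libraries. Spib rose by 2.42 ± 0.48 on the log2 scale (SE; edgeR adjusted p 0.0116), with means of 82.0 ± 47.2 CPM and 15.4 ± 5.23 CPM (SD, n = 3). Its call ended on leaving out either Lgr5-CreER library 1 or Lgr5-CreER library 3, at edgeR adjusted p of 0.0505 and 0.0537.

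Among the kinases, Dclk1 had the largest log2 difference between Hopx-CreER library 3 and the mean of libraries 1 and 2. It stood at 137, 124 and 17 CPM there, and at 15.3, 23.9 and 21 CPM in the Lgr5-CreER libraries. Libraries 1 and 2 were high and library 3 was inside the Lgr5-CreER range, so the groups overlap. Dclk1 (chromosome 3, 55242364 to 55539068, plus strand) rose by 2.21 ± 0.60 on the log2 scale (SE; edgeR adjusted p 0.0424), with means of 92.7 ± 65.9 CPM and 20.1 ± 4.41 CPM (SD, n = 3). That call ended in each of the 5 fits that left out a library other than Hopx-CreER library 3, at edgeR adjusted p of 0.0988, 0.116, 0.138, 0.116 and 0.13 without Hopx-CreER library 1 or 2 or Lgr5-CreER library 1, 2 or 3. Without Hopx-CreER library 3 the log2 fold change was 2.69 ± 0.17 (edgeR adjusted p 1.56e-05). The annotated antisense transcript Gm42609 overlaps Dclk1 exons and had 0 to 10 counts per library, against 183 to 1819 for Dclk1. Gm21954, annotated as protein-coding on the opposite strand, overlaps Dclk1 exons too and was not among the genes matched by symbol. Its part in the Dclk1 counts was not tested.

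Matk differed less between Hopx-CreER libraries than the other kinases. It stood at 75.4, 53.3 and 42.8 CPM in them and at 8.23, 14.1 and 15.5 CPM in the Lgr5-CreER libraries. Library 3 was the lowest of its group and still far above every Lgr5-CreER library. Matk (chromosome 10, 81252935 to 81263365, plus strand) rose by 2.18 ± 0.29 on the log2 scale (SE; edgeR adjusted p 0.00188). Its means were 57.1 ± 16.7 CPM and 12.6 ± 3.85 CPM (SD, n = 3).

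Bmx, which is also expressed in arterial endothelium, was the least abundant kinase per transcript length. It stood at 16.8, 11.7 and 1.95 CPM in Hopx-CreER libraries, the last from 21 counts, and at 2.08, 3.63 and 1.45 CPM in Lgr5-CreER libraries. Library 3 lay within the Lgr5-CreER range. Bmx (chromosome X, 164192842 to 164258193, minus strand) had a log2 fold change of 2.10 ± 0.68 (10.1 ± 7.54 against 2.38 ± 1.12 CPM, SD, n = 3; edgeR adjusted p 0.0752). Without Hopx-CreER library 3 it was 2.58 ± 0.38 (edgeR adjusted p 0.00129), and 2.16 ± 0.59 with offsets for GC content (edgeR adjusted p 0.0364). Bmx was called in 6 of 16 alternative fits. The highest edgeR adjusted p for Bmx was 0.224, without Lgr5-CreER library 3.

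Avil was the most abundant member per transcript length. It stood at 269, 211 and 51.5 CPM in Hopx-CreER libraries and at 29, 48.5 and 35.4 CPM in Lgr5-CreER libraries. Library 3 was just above Lgr5-CreER library 2, so the groups did not overlap by a narrow margin. Avil (chromosome 10, 127000709 to 127020994, plus strand) rose by 2.24 ± 0.50 on the log2 scale (SE; edgeR adjusted p 0.0186), with means of 177 ± 113 CPM and 37.6 ± 9.92 CPM (SD, n = 3). The call ended without Hopx-CreER library 2 (edgeR adjusted p 0.0556) or Lgr5-CreER library 1, 2 or 3 (0.0757, 0.055 and 0.0779). Exons of Tsfm, a mitochondrial translation factor on the opposite strand, overlap those of Avil, and the libraries do not mark the strand. Tsfm itself stood at 115 to 149 CPM in all 6 libraries, with a log2 fold change of 0.17 ± 0.12 (edgeR adjusted p 0.404).

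Sh2d6 stood at 92.6, 75.2 and 34.7 CPM in Hopx-CreER libraries and at 6.43, 12.6 and 12.4 CPM in Lgr5-CreER libraries. Library 3 was lower than libraries 1 and 2 and above every Lgr5-CreER library. Sh2d6 (chromosome 6, 72513641 to 72521707, minus strand) rose by 2.69 ± 0.38 on the log2 scale (SE; edgeR adjusted p 0.00275). Its means were 67.5 ± 29.7 CPM and 10.5 ± 3.51 CPM (SD, n = 3). Matk, Sh2d6 and Hmx2 kept their calls in all 16 alternatives tried, with edgeR, DESeq2 or limma-voom adjusted p of at most 0.0122, 0.0164 and 0.0254.

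**Figure D2:**
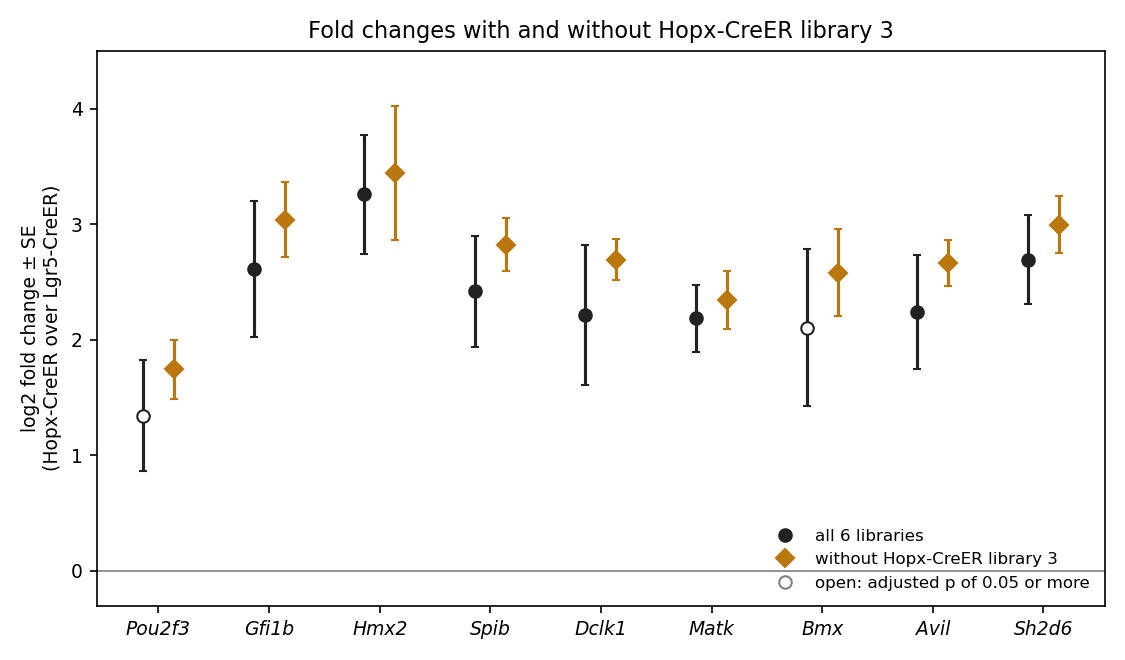
Log2 fold change of each gene between Hopx-CreER and Lgr5-CreER cells with its standard error, from all 6 libraries (black circles) and without Hopx-CreER library 3 (brown diamonds); open symbols have an adjusted p of 0.05 or more. Pou2f3 and Bmx are open with all libraries and filled without library 3, and the value without library 3 is the larger for each gene.

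Between genes, levels were compared as CPM per kilobase of the longest annotated transcript (GENCODE M21). In Hopx-CreER cells the order was Avil (58.4 ± 37.2 CPM per kilobase, SD, n = 3), Sh2d6 (48.9 ± 21.5), Spib (29.4 ± 17), Matk (19.2 ± 5.59), Pou2f3 (12.8 ± 8.15), Dclk1 (11.7 ± 8.28), Gfi1b (7.52 ± 4.98), Bmx (3.37 ± 2.51) and Hmx2 (0.858 ± 0.226). Each gene's mean ± SD overlapped that of its neighbour for all 8 neighbouring pairs. The genes share the 3 libraries, and within each library 5 of the 8 steps kept the same sign, such as Sh2d6 over Spib at 67.0 against 40.2, 54.4 against 38.1 and 25.1 against 9.88 CPM per kilobase. The steps that did not were Avil over Sh2d6, Spib over Matk and Pou2f3 over Dclk1. In Lgr5-CreER cells the order was the same except that Pou2f3 (5.07 ± 1.51) and Matk (4.22 ± 1.29) changed places. There 6 of 8 neighbouring pairs overlapped, and 7 of 8 steps, all but Spib over Pou2f3, kept the same sign in each library. The pairs that did not overlap were Dclk1 (2.52 ± 0.553) above Gfi1b (1.24 ± 0.45), and Bmx (0.793 ± 0.374) above Hmx2 (0.0885 ± 0.0393). Avil had the highest level per kilobase in 5 libraries and Sh2d6 in Hopx-CreER library 3. The longest Dclk1 transcript has 7962 bases, and shorter ones would raise its level per kilobase.

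The spread between Hopx-CreER libraries was wide for these genes and uneven among them. The coefficient of variation over the 3 libraries was 74.4% for Bmx, 71.1% for Dclk1, 66.3% for Gfi1b, 63.6% for Avil, 63.5% for Pou2f3 and 57.6% for Spib. It was 44% for Sh2d6, 29.2% for Matk and 26.3% for Hmx2. In the Lgr5-CreER libraries the 9 values ran from 22% to 47.1%. The median biological coefficient of variation in the edgeR fit was 40.1% over the members and 21.3% over all tested genes.

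Library 3 was the lowest of the Hopx-CreER libraries for all 9 genes. On the log2 scale, its level less the mean of libraries 1 and 2 had a median of -1.98 over the members and -0.023 over all tested genes. Of the 9 members, 7 were lower there by at least 1, against 11.6% of all genes, and 0 were higher by at least 1, against 2.53%. The difference was -2.93 for Dclk1, -2.75 for Bmx, -2.23 for Gfi1b, -2.21 for Avil, -1.98 for Spib and -1.92 for Pou2f3. It was smaller for Sh2d6 (-1.26), Hmx2 (-0.68) and Matk (-0.57). One library has no replicate, so this is a description with no test.

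**Figure D3:**
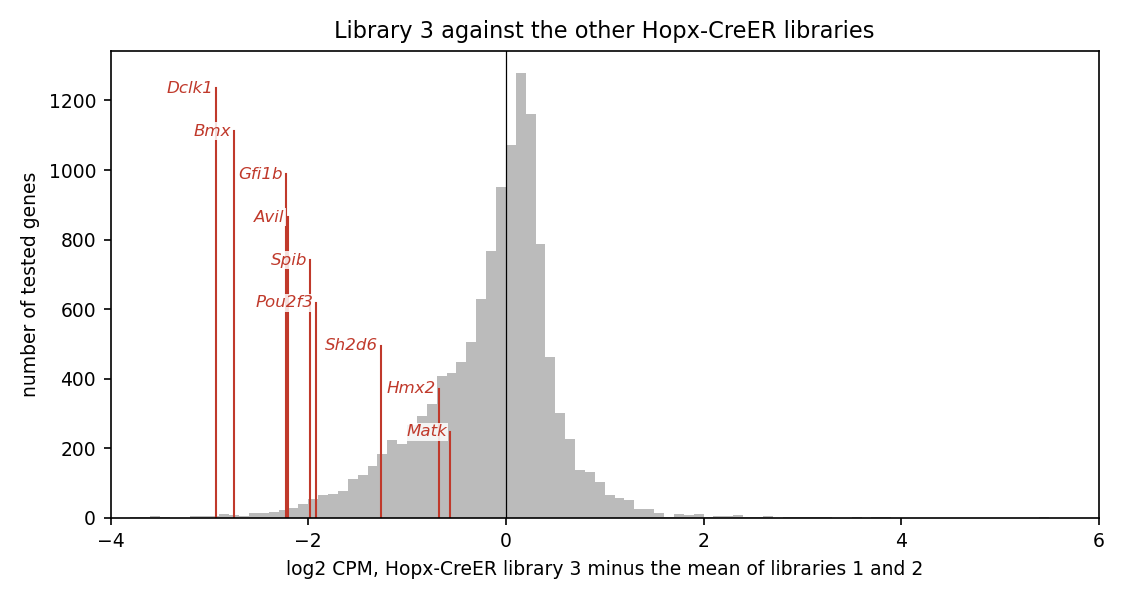
Number of tested genes (grey bars) by log2 CPM in Hopx-CreER library 3 minus the mean of libraries 1 and 2, with the 9 genes as red lines whose heights carry no value. The members lie between -2.93 (Dclk1) and -0.57 (Matk), and the grey bars centre near 0.

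The members also differed in how library 3 stood against the Lgr5-CreER libraries. Scaled counts of Pou2f3, Dclk1 and Bmx in library 3 were 0.867, 0.86 and 0.851 times those in the Lgr5-CreER libraries together, with exact 95% intervals of 0.707 to 1.06, 0.729 to 1.01 and 0.503 to 1.38. Avil, Gfi1b and Spib were 1.4-fold (1.27 to 1.54), 1.74-fold (1.17 to 2.54) and 1.84-fold (1.6 to 2.12) higher in library 3. Sh2d6, Matk and Hmx2 were 3.38-fold (2.93 to 3.89), 3.44-fold (3.02 to 3.9) and 6.92-fold (3.16 to 16) higher. In libraries 1 and 2 together the same ratios ran from 3.43 for Pou2f3 to 11.4 for Hmx2, so the members that were near the Lgr5-CreER level in library 3 were well above it in the other libraries.

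Transcript GC content moved with the library 3 difference. Over the 9 members Spearman's rho was 0.667, and over 12426 tested genes 0.473; genes within these libraries share depth and composition and are not replicates. The members with the largest library 3 difference, Dclk1 and Bmx, have 46.3% and 43.8% GC, and Matk has 59%. With offsets for GC content the library 3 difference was -2.56 for Dclk1, -2.23 for Bmx, -0.78 for Matk and -0.82 for Hmx2, with a median over the members of -2.12. The median was thus as large with the offsets. With them rho was 0.5 over the members and -0.031 over all genes. Gfi1b, at 57.5% GC, has the highest GC content after Matk and had a difference of -2.23 without offsets and -2.42 with them.

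The Lgr5-CreER libraries also differed among themselves. Library 1 was the lowest of the 3 for 8 of the 9 members, against 34.5% of all genes. Bmx, lowest in library 3, was the exception. Library 1 was below the mean of libraries 2 and 3 by 0.94 (log2) for Sh2d6, 0.83 for Matk and 0.80 for Spib, and by 0.14 for Bmx. Libraries 2 and 3 are those whose columns bear one number in common, and with these summed into 1 library 4 members were called by edgeR, namely Hmx2, Matk, Sh2d6 and Spib.

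Other tuft cell genes were also mostly lower in Hopx-CreER library 3. Of 17 chemosensory and eicosanoid genes, 12 were tested, with a median log2 fold change of 1.94. Among these 5 were higher and 0 lower, the other 7 did not pass, and without library 3 the number higher was 8. Of the genes that did not pass, Pla2g4a (-0.88 ± 0.46, edgeR adjusted p 0.251) and Itpr3 (-0.19 ± 0.15, edgeR adjusted p 0.441) had negative log2 fold changes. The rest had positive ones. Pla2g4a and Itpr3 were named after their values were seen. Over all tested genes 9.45% were higher and 3.3% lower, and without library 3 9.89% were higher. Trpm5, the cation channel that ends the taste transduction cascade, rose by 2.21 ± 0.43 on the log2 scale (edgeR adjusted p 0.011), and Plcb2, the phospholipase upstream of it, by 3.31 ± 0.55 (edgeR adjusted p 0.00524). Gnat3, the taste G protein, was at 0 in all 6 libraries, and the tuft cytokine Il25 had 21, 6 and 1 counts in Hopx-CreER libraries and 4, 2 and 3 in Lgr5-CreER libraries. Of 23 signalling and cytoskeletal genes of tuft cells, 13 were higher and 0 lower, and the other 10 did not pass. Without library 3 the number higher was 19. The median log2 fold change of this list was 1.58. The shares over all genes are those just given. The library 3 difference had a median of -1.90 over the chemosensory and -1.30 over the signalling list.

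Some called genes of the signalling and cytoskeletal list differed less between library 3 and libraries 1 and 2. Espn, which bundles actin in microvilli, rose by 2.42 ± 0.21 on the log2 scale (edgeR adjusted p 0.000439), with a library 3 difference of -0.40. Krt18, a keratin shared by many epithelial cells, rose by 0.73 ± 0.10 (edgeR adjusted p 0.00239), with a difference of -0.09. Fyb, an adaptor of immune-type signalling, rose by 2.47 ± 0.41 (edgeR adjusted p 0.00519), with a difference of -0.89.

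Most of the tested partners and upstream regulators of the factors were not called in either direction. Of 12 regulators of tuft and secretory lineages, 10 had counts enough for the test, and their median log2 fold change was -0.21. A rise in Hopx-CreER cells was called for 1 of the 10, against 9.45% of all tested genes. A fall was called for 2, against 3.3%, and the remaining 7 had no call. Whether so short a list differs from all genes was not tested. The higher gene was 1810046K07Rik, known as Pou2af2, a coactivator that Pou2f3 uses in tuft cells. It rose by 1.79 ± 0.40 on the log2 scale (SE; edgeR adjusted p 0.0184). Its means were 25.7 ± 11.5 CPM and 7.45 ± 2.82 CPM (SD, n = 3). Colca2, known as Pou2af3 and the other such coactivator, stood at 12.8 ± 1.78 against 13.9 ± 1.41 CPM, a log2 fold change of -0.12 ± 0.22 (edgeR adjusted p 0.765); Colca2 was named after its values were seen. The lower genes were Sox4, which takes part in tuft and enteroendocrine specification and fell by 0.99 ± 0.20 (edgeR adjusted p 0.0115), and the stem cell factor Ascl2, which fell by 1.09 ± 0.15 (edgeR adjusted p 0.00239). Myb did not pass (-0.70 ± 0.24, edgeR adjusted p 0.0978).

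Paralogs of the members were counted against the 12.8% of all tested genes that were called in either direction. Of 8 paralogs of the transcription factors, 6 were in the table, where only Pou2f1 and Gfi1 had counts enough to be tested, and neither passed. Gfi1, the close relative of Gfi1b that acts in goblet and Paneth cells, had a log2 fold change of 0.12 ± 0.31 (edgeR adjusted p 0.829). Of 17 relatives of the kinases, of advillin and of Sh2d6, 13 were tested, and 3 were higher, 1 lower and the other 9 did not pass. Their median log2 fold change was 0.28. The higher ones included the relatives of advillin Scin (2.96 ± 0.27, edgeR adjusted p 0.000528) and Capg (1.57 ± 0.22, edgeR adjusted p 0.00231). The other was the doublecortin-like kinase Dclk3 (2.01 ± 0.43, edgeR adjusted p 0.0156), which was higher in library 3 than in libraries 1 and 2 by 0.45 (log2). Blnk, an adaptor of the B cell receptor, fell by 0.62 ± 0.12 (edgeR adjusted p 0.0125).

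Among the Src-family kinases, the substrates of Matk, Fyn and Lck were lower in Hopx-CreER cells. Fyn fell by 1.52 ± 0.27 on the log2 scale (edgeR adjusted p 0.00692) and Lck by 1.48 ± 0.32 (edgeR adjusted p 0.0175). Fgr did not pass (-0.54 ± 0.21, edgeR adjusted p 0.129).

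Genes with profiles near that of the members were sought over the whole table. Each gene's log2 CPM less its Lgr5-CreER mean was compared with the median such profile of the 9 members by Euclidean distance over the 6 libraries, among 11915 other genes that averaged 1 CPM or more. Hopx-CreER libraries 1, 2 and 3 stood at 2.83, 2.65 and 0.77 in that median profile. Among the 10 nearest genes were Mcub (distance 0.373), Lrmp, Inpp5d, Trpm5, Rac2, Kctd12, Alox5, Cd300lf and Pik3r5 (0.714). Of the 10, 7 are in the tuft lists above, and Mcub, Lrmp and Rac2 are not. Lrmp, a membrane protein of the endoplasmic reticulum, stood at 236, 182 and 59.7 CPM in Hopx-CreER libraries and at 22.1, 35.8 and 29.7 CPM in Lgr5-CreER libraries. Among the members, Spib (0.285) and Avil (0.394) lay nearest to the median and Pou2f3 (1.74) farthest. By Pearson's r, 5 of the 10 nearest were the same genes and 4 of the 10 were in the tuft lists.

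Markers of other crypt cells moved between the same libraries. Summed over 7 Paneth markers, the level was 15540, 14800 and 32210 CPM in Hopx-CreER libraries 1, 2 and 3, against 1638 to 3197 CPM in Lgr5-CreER libraries. Summed over 10 enterocyte markers it was 1602, 1376 and 3604 CPM, against 508 to 689 CPM. Library 3, the lowest for the 9 tuft genes, was thus the highest for these lists. Goblet markers summed to 6853, 10410 and 6938 CPM against 1989 to 2631 CPM, and enteroendocrine markers to 2430, 6720 and 3301 CPM against 157 to 290 CPM. Paneth markers were called higher in 7 of 7, goblet in 7 of 7, enteroendocrine in 8 of 9 and enterocyte in 8 of 10. All 7 of 7 Lgr5 stem cell markers were lower. They summed to 4480, 4011 and 2661 CPM in Hopx-CreER libraries 1, 2 and 3, against 9394 to 9884 CPM in Lgr5-CreER libraries. Library 3 was thus the lowest Hopx-CreER library for this sum as well. Of the 7 stem cell markers, 6 were lower in library 3 than the mean of libraries 1 and 2, and the median log2 difference was -0.30. Of all genes tested, 9.45% were higher and 3.3% lower. The 9 tuft genes together made 776, 641 and 193 CPM against 81.8 to 141 CPM. The part of these other cells in the results was not tested.

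**Figure D4:**
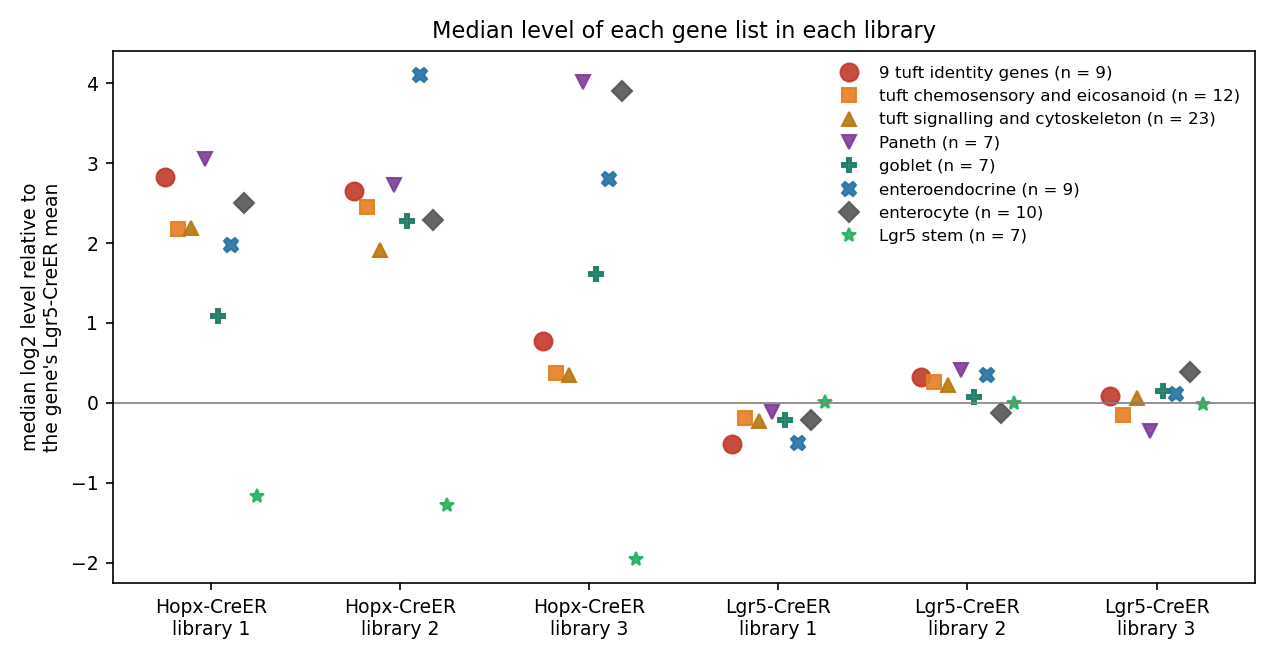
Median log2 CPM of each gene list in each library, relative to each gene's mean over the Lgr5-CreER libraries; n is the number of tested genes in the list and points are shifted sideways to be seen. The 9 tuft genes drop from 2.83 and 2.65 in Hopx-CreER libraries 1 and 2 to 0.77 in library 3, where the Paneth and enterocyte lists are at their highest.

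Markers of non-epithelial cells left few counts, apart from Kit. Markers of M cells, which are epithelial and use Spib, are given with them and were not low in sum. Of 14 leukocyte markers 3 were tested, and the list summed to 2.49, 5.67 and 10.1 CPM in Hopx-CreER libraries 1, 2 and 3 and to 3.15 to 4.2 CPM in Lgr5-CreER libraries, with Adgre1 at 0 in all and Ptprc at 0 to 14 counts. The B cell marker Ms4a1, which bears on Spib, was lower in Hopx-CreER cells (edgeR adjusted p 0.00588), with 1, 0 and 0 counts against 12, 15 and 18. Endothelial markers, beside Bmx, summed to 2.41 to 5.33 and 1.79 to 3.08 CPM, with Cdh5 at 0 in all. Markers of megakaryocytes and red cells, beside Gfi1b, summed to 0.753 to 2.41 and 1.47 to 1.72 CPM, with Hba-a1 at 0. M cell markers, beside Spib, summed to 177 to 232 and 214 to 253 CPM, and the defining marker Gp2 had 4 counts in 1 library and 0 in the others. Of the 5 tested, 0 were called, against 12.8% of all tested genes in either direction. Mesenchymal markers summed to at most 0.605 CPM and neuronal and glial ones to at most 1 CPM, with Col1a1 and Elavl4 at 0. Mast cell markers other than Kit reached 35 counts, of Mcpt1 in Hopx-CreER library 3, and Fcer1a was at 0. Kit, also used by epithelial cells, stood at 89.9, 51 and 23.2 CPM in Hopx-CreER and 32.5, 61.5 and 52 CPM in Lgr5-CreER libraries.

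Calls over all genes depended on scaling, while the 9 members kept a positive fold change under each scaling. Of all called genes, 74.1% were higher in Hopx-CreER cells with TMM factors, 56.3% when scaled by library totals alone and 50.2% after GC offsets, and 6 and 8 members were called under the last 2. Library totals alone shifted the median of all genes by -0.114 on the log2 scale.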

How the data were processed

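Cells were sorted into TRIzol LS and libraries made with SMART-Seq v4 and Nextera XT, per the labels' protocols. The authors deposited 1 table of raw counts, whole numbers per versioned mouse Ensembl gene for 6 libraries. The submitters' processing notes list kallisto and edgeR, and GRCh38, which is a human build; the sources used here do not give how the counts were made. Symbols were matched for 23479 identifiers and not for 86. Every column was used.

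The test was edgeR's quasi-likelihood F-test (edgeR 4.0.16, R 4.3.3; TMM, default filterByExpr, Benjamini-Hochberg over 12439 genes, threshold 0.05), with DESeq2 1.42.0 and limma 3.58.1 as alternatives. SEs come from the F statistic, SDs are over 3 libraries, and log2 CPM used a prior count of 2. GC offsets were per-library splines with 5 degrees of freedom on the longest GENCODE M21 transcript. The procedure was tested on simulated data. Members, lists and motifs were chosen with earlier results of these data known. Named genes are the 9 members, the 10 genes nearest to their median profile, and up to 4 genes per pathway list, taken by p among those whose higher group averaged 1 CPM or more; not all are printed, some genes are not reported here, and others, such as marker genes given by count, were named after their values were seen.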

Additional observations from a re-analysis of the deposited data

How the results depend on the processing

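All 9 members kept a positive log2 fold change in each of 16 alternatives, from 0.82 (Pou2f3) to 3.54 (Hmx2). The number of members called was 7, and ranged from 3 to 9 when 1 library was left out. It was 4 without Hopx-CreER library 2 or Lgr5-CreER library 2, 3 without Lgr5-CreER library 1 or 3, 4 with limma-voom and 4 with Lgr5-CreER libraries 2 and 3 summed. It was 9 with DESeq2, with no filter on low counts, with limma-voom quality weights, without Hopx-CreER library 3, and with the summed libraries and Hopx-CreER library 3 left out. Pou2f3 and Bmx were then called too, at adjusted p of 0.0173 and 0.0085 with DESeq2, 0.0124 and 0.00636 with edgeR and no filter, and 0.0207 and 0.0144 with limma-voom quality weights. Over all genes, leaving out 1 library gave 606 to 1275 higher and 117 to 593 lower. Lower genes numbered 729 with library totals alone, 694 with DESeq2 and 1037 with GC offsets, against 410. Summing those libraries gave 659 higher and 131 lower, against 1176 and 410. By Pearson's r, 4 of the 10 nearest genes were in tuft lists, against 7. Fits with fewer libraries also have fewer residual degrees of freedom; for the other settings the cause was not tested. No paired analysis was possible because the column names carry no replicate number. At these depths a gene with under 3 counts, 0.201 to 0.278 CPM, cannot be told from background, which touches Hmx2 in Lgr5-CreER library 1 and the untested tuft genes.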

Other observations

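Ratios between members, chosen after their values were seen, compare counts within a library, where scaling plays no part. Hopx-CreER libraries 1 and 2 had a Matk to Dclk1 count ratio of 0.55 and 0.429, and the Lgr5-CreER libraries had 0.539, 0.588 and 0.738. In Hopx-CreER library 3 it was 2.52 (exact 95% interval 2.12 to 3.01, counting error only). The Sh2d6 to Avil count ratio was 0.344 and 0.357 in Hopx-CreER libraries 1 and 2, 0.222 to 0.35 in Lgr5-CreER libraries, and 0.674 (0.59 to 0.77) in Hopx-CreER library 3. For Hmx2 to Gfi1b it was 0.488 (0.271 to 0.852) in library 3, against 0.197 (0.137 to 0.277) and 0.141 (0.0963 to 0.2) in Hopx-CreER libraries 1 and 2 and 0.0909 (0.0104 to 0.37), 0.111 (0.0287 to 0.31) and 0.156 (0.0475 to 0.404) in the Lgr5-CreER libraries. The interval of library 3 overlaps those of Hopx-CreER library 1 and of every Lgr5-CreER library for that pair. Among genes too low to test, Hmx3, the neighbour and paralog of Hmx2, had 45, 16 and 8 counts in Hopx-CreER libraries and 5, 6 and 3 in Lgr5-CreER libraries.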
